A study of Mus musculus with 23 samples.

Results

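The RNA-seq libraries of mouse embryonic stem cells (ESCs) were compared by replicate number, with the 3 libraries numbered replicate 1 set against the 6 libraries numbered replicates 2 and 3. The members were chosen by the number in the sample titles, 1 library of replicate 1 and 2 others in each of 3 groups, and made up 9 of the 23 samples of the series. All cells derived from E14, a mouse ESC line, and were grown on gelatin without feeder cells in serum with leukemia inhibitory factor (LIF), and total RNA depleted of rRNA was sequenced. In the EtOH control, Zbtb11lox/lox cells with an ERt2-Cre transgene in the Rosa26 locus had received ethanol, the carrier. The Zbtb11 KO group was the same line treated with 250 nM 4-hydroxytamoxifen (4OHT), which activates the Cre and removes exon 3 of Zbtb11. The 4OHT control had wild-type Zbtb11 and Rosa26 loci and received 250 nM 4OHT. All 3 groups were collected after 48 h. The line carrying the lox alleles was an isolated homozygous line. The EtOH control and the Zbtb11 KO therefore share 1 isolated line, with its lox alleles and Cre transgene, from which the 4OHT control does not come. GEO's labels do not say what a replicate number stands for (a culture, a day or a preparation), and these cannot be told apart here.

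Mouse ESCs in serum and LIF hold a self-renewing state in which Oct4 (Pou5f1), Sox2 and Nanog form the core of the transcription factor network. LIF acts through Stat3, while FGF signalling through ERK pushes cells towards primed pluripotency, and its activity is read from feedback genes such as Spry4, Dusp6 and Etv4. Myc raises ribosome production and growth. Hypoxia-inducible factor (HIF) is degraded when oxygen is plentiful, and when it is stable it switches on glycolytic enzymes, glucose transporters and collagen prolyl hydroxylases.

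In each group the replicate 1 library had the fewest counts on genes, between 14301457 and 18872759, against 20172766 to 23876604 in the other 6 libraries. The share of reads outside annotated genes was 29.1 to 31.6% in replicate 1 and 25.3 to 29.4% in the others. Genes of replication-dependent histones took 0.626 to 0.707% of the counts in replicate 1 and 0.728 to 0.821% in the others, without overlap. The deletion itself could not be followed, because the annotation used for counting joins Zbtb11 with its neighbour Rpl24. This joint gene had 355 to 371 CPM (counts scaled to a common library size) in replicate 1 and 358 to 386 CPM in the other libraries. Replicate 1 was singled out because it lay apart from the other replicates, so the counts of genes below describe how far apart it lay. By replicate number the comparison is 1 against 2, for which an exact permutation test cannot give a p-value below 0.333, and the p-values below measure the spread between libraries, which may be technical.

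Most of the measured genes differed between replicate 1 and the other replicates. The test covered the 14346 of 37310 genes that exceeded 1 CPM in 3 or more libraries, of which 8044 (56.1%) passed the threshold of an adjusted p-value under 0.05 in edgeR's quasi-likelihood test with the group as a covariate. In replicate 1, 4101 genes were higher (28.6%) and 3943 were lower (27.5%). Most differences were small, with a median absolute size of 0.41 on the log2 scale among the genes past the threshold, and 497 genes were more than 2-fold higher and 138 more than 2-fold lower. The 3 libraries of replicate 1 lay outside the range of both other libraries of their own group, all in the same direction, for 8513 genes (59.3%). Taken across groups, the 3 libraries did not overlap the 6 others for 5133 genes (35.8%). Between replicates 3 and 2, tested in the same way, 251 genes (1.75%) differed, 4 of them by more than 2-fold.

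**Figure D1:**
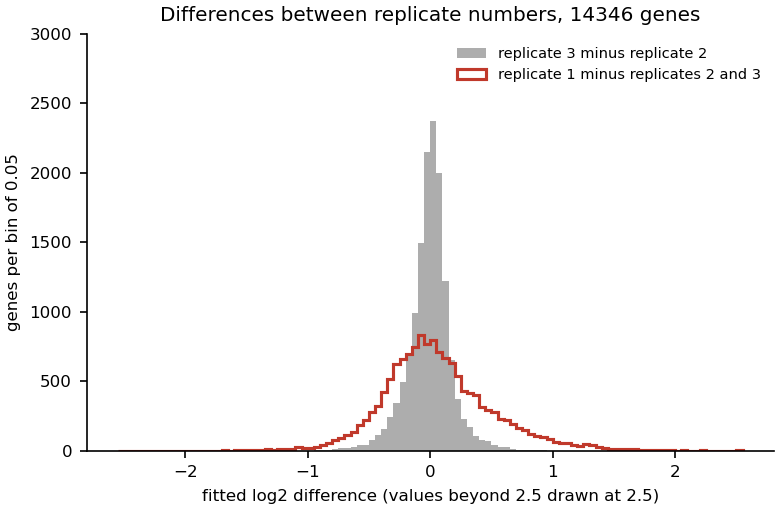
Distribution of the fitted log2 differences (x axis) over the 14346 tested genes (y axis, genes per bin), for replicate 1 minus replicates 2 and 3 (red line) and for replicate 3 minus replicate 2 (grey bars). The median absolute difference was 0.25 for the first and 0.09 for the second.

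In a principal component analysis of the 500 most variable genes, the first component (50.1% of the variance) separated the 4OHT control from the lox line. The second component (33.7%) separated replicate 1, at 16.1 to 18.2, from all other libraries, at -14.6 to -4.24. The biological coefficient of variation estimated by edgeR was 17.4% with the groups alone, 6.45% once replicate 1 was a term of the model, and 6.79% over replicates 2 and 3 only.

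**Figure D2:**
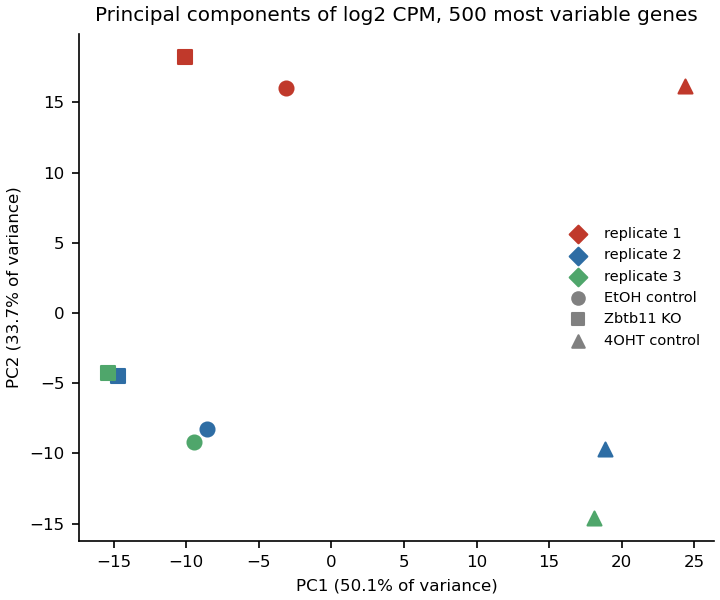
First and second principal components of log2 CPM (x and y axes, arbitrary units) for the 9 libraries, coloured by replicate and shaped by group. The replicate 1 libraries (red) lie above the others on the second component in all 3 groups.

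The genes with the largest excess in replicate 1 were taken among those with a mean of at least 5 CPM. Ndufa4l2, a mitochondrial protein known as a HIF target (mm9 chr10:126951995-126954208), had 35.1 CPM in the EtOH control, 29.9 in the Zbtb11 KO and 66.9 in the 4OHT control of replicate 1. In the others it ranged from 3.3 to 12.9 CPM with a median of 8.2, without overlap (log2 difference 2.37, SE 0.20, adjusted p = 3.18e-07 in edgeR). For Rab3il1, an exchange factor for Rab GTPases, replicate 1 had 53.8, 50.5 and 47.6 CPM and the others 6.57 to 14.1 CPM (log2 difference 2.21). Pygl, the liver form of glycogen phosphorylase, had 12.6, 12.3 and 15.1 CPM against 2.67 to 3.57 CPM (log2 difference 2.07). Others among the 12 genes with the largest excess were Atp2b2 (a plasma membrane calcium pump), Adssl1 (adenylosuccinate synthase), Unc5a (a netrin receptor), Tgm2 (a transglutaminase), Lbh, Pdgfrb (a growth factor receptor), Gdpd5 and Pdzk1, with log2 differences from 1.73 to 2.21. None of the 12 overlapped between replicate 1 and the other libraries, as was so for 35.8% of all tested genes. Their choice by size and by direction in all 3 groups favoured this.

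By the same rule, Myc had the largest deficit in replicate 1. Myc, a growth-promoting transcription factor (chr15:61816946-61821929) had 8.34, 8.62 and 4.6 CPM in the EtOH control, Zbtb11 KO and 4OHT control of replicate 1, against 28.0 to 38.5 CPM with a median of 35.6 in the other libraries. Every replicate 1 library was far below every other library, and the log2 difference was -2.25 (SE 0.10, adjusted p = 2.4e-09 in edgeR). Foxd3, a forkhead factor required for the maintenance of ESCs (chr4:99322990-99325362), had 8.18, 8.73 and 9.54 CPM against 25.2 to 31.7 CPM (log2 difference -1.69). Gbx2, a homeobox gene activated by LIF, had 17.7, 18.3 and 8.58 CPM against 25.6 to 57.8 CPM (log2 difference -1.58). Spry4, an inhibitor of ERK signalling, had 91.8, 84.0 and 41.7 CPM against 161 to 223 CPM (log2 difference -1.49). None of these overlapped between replicate 1 and the others. Wt1, Ccnd2 (cyclin D2) and Irgm1 were lower in replicate 1 within each group, but overlapped across groups, with their lowest levels in the 4OHT control. For Ccnd2 the replicate 1 values were 29.5, 34.4 and 9.33 CPM, and the others ranged from 20.3 to 114 CPM (log2 difference -1.59). Sall3, Enox1, Gm14820, Spred3 and Etv1 completed the 12, with log2 differences from -1.69 to -1.38.

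**Figure D3:**
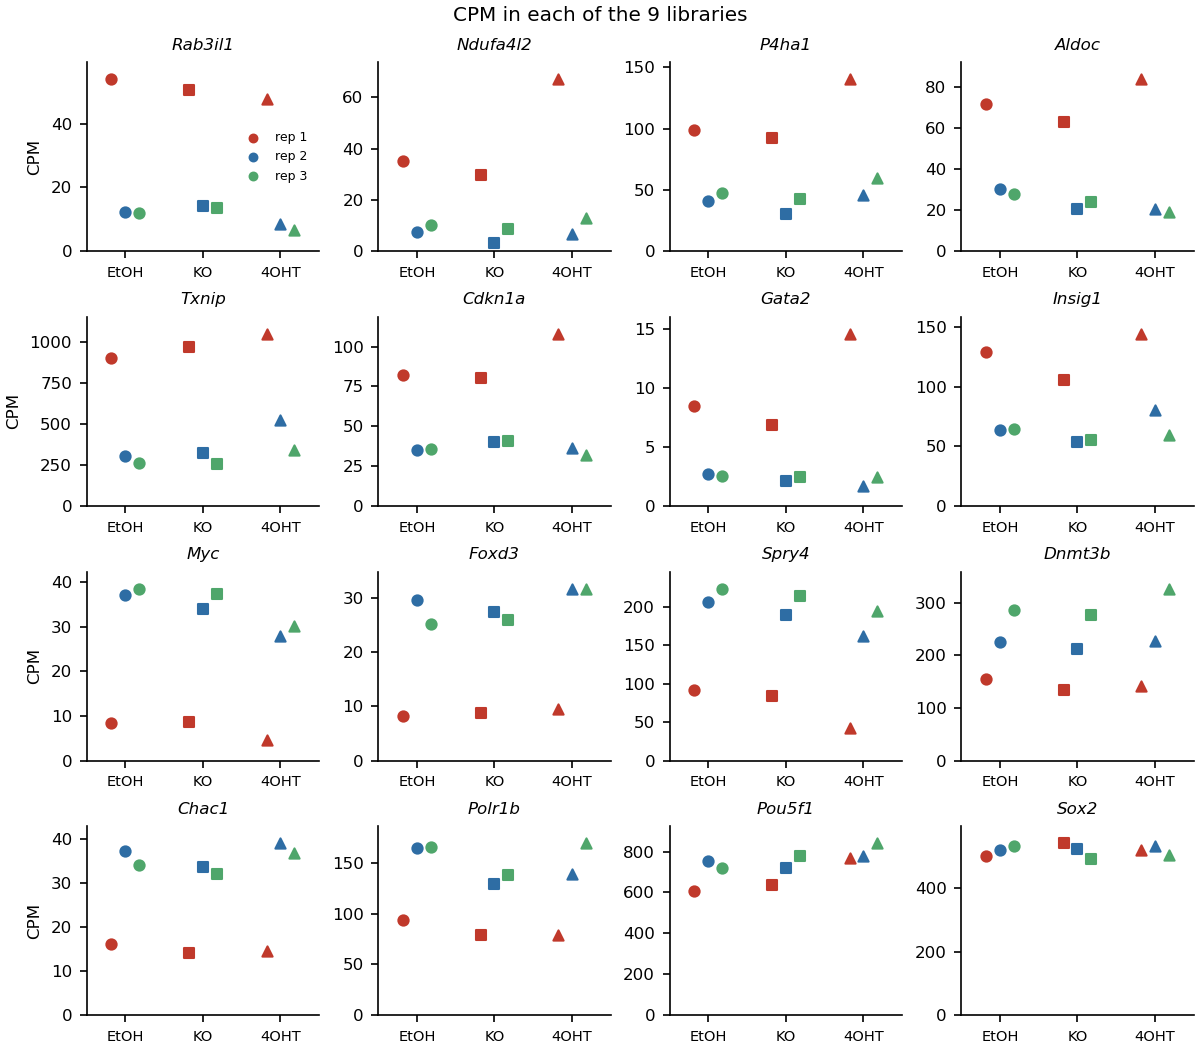
CPM (y axis, from 0) of 16 genes in each of the 9 libraries, by group (x axis) and replicate (colour). The first 8 genes were higher in replicate 1 in every group and the next 6 lower, while Sox2 and Pou5f1 overlapped and Pou5f1 differed by -0.20 on the log2 scale.

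Target genes of HIF were higher in replicate 1 as a group. Of 29 tested members 25 were higher and 1 was lower, with a median log2 difference of 0.87, where 28.6% of all tested genes were higher and their overall median was 0.01. P4ha1, a subunit of the collagen prolyl hydroxylase, had 99.2, 92.1 and 140.2 CPM in replicate 1 and 30.7 to 59.7 CPM (median 44.2) in the others. This was a log2 difference of 1.30 (SE 0.09, adjusted p = 4.98e-08 in edgeR), and the groups did not overlap. P4ha2, its paralogue, differed by 1.2, and Egln1, an oxygen-sensing hydroxylase that marks HIF for degradation, by 1.17. Vegfa, the vascular growth factor, had 75.2, 64.3 and 96.4 CPM against 48 to 58.1 CPM (log2 difference 0.59, adjusted p = 1.38e-05). The members with the largest differences were Ddit4, an inhibitor of mTORC1 (1.49), Bhlhe40, a transcriptional repressor (1.44), and Ndrg1 (1.4). Kdm3a, a histone demethylase, was the member that was lower (-0.43). Pdk1, which restrains pyruvate entry into the mitochondria, did not pass the threshold, at 144, 154 and 132 CPM against 133 to 180 CPM (log2 difference -0.17, adjusted p = 0.0664).

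RefSeq promoter windows of 300 bases (250 before and 50 after a transcript start, GRCm38.p6) are shown for 5 genes of the HIF and glycolysis lists, since members of these lists moved together. Capitals mark ACGTG or GCGTG on either strand, the core of the element that HIF binds. Of the 32851 windows examined 43.8% held such a core, as did 61.4% of the 12432 windows of tested genes. For 23 members of the HIF list found there, 24 of 30 windows (80%) did, and for 19 members of the glycolysis list 23 of 29 (79.3%). Lists that were lower in replicate 1 held it too, in 12 of 12 windows (100%) for tRNA synthetases, 71.4% for ribosome biogenesis and 68.1% for mitochondrial ribosomal proteins. Among windows of genes higher and lower in replicate 1 the shares were 61.3% and 63.2%. A match is a description of the letters and not a measured binding site. The windows lie at chr10:59323046-59323345 (P4ha1, + strand), chr11:54100674-54100973 (P4ha2, + strand), chr8:124949205-124949504 (Egln1, - strand), chr11:78322823-78323122 (Aldoc, + strand) and chr7:46845554-46845853 (Ldha, + strand).
P4ha1: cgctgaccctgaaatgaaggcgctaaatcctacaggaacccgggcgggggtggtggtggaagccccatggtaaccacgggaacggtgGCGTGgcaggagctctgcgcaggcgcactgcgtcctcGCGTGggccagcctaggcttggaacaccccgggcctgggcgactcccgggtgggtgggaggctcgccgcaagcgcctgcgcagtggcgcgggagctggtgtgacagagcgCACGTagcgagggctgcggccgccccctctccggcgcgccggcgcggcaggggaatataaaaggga
P4ha2: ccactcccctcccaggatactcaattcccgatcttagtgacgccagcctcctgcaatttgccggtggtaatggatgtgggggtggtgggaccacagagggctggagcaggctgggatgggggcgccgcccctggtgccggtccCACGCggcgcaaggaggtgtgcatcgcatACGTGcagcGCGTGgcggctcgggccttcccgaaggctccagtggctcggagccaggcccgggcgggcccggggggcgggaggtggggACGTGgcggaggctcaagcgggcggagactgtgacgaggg
Egln1: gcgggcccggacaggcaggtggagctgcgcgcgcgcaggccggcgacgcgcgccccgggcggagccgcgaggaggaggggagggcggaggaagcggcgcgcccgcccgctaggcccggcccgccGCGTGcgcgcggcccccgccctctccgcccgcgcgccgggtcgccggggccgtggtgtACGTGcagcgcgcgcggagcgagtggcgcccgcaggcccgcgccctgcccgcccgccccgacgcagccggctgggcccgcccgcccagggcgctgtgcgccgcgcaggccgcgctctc
Aldoc: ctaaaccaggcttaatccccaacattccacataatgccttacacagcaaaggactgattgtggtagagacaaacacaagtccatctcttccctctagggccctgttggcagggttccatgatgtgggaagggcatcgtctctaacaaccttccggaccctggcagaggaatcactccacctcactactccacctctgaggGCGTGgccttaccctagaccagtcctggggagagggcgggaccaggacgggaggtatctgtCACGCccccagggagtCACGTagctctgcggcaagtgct
Ldha: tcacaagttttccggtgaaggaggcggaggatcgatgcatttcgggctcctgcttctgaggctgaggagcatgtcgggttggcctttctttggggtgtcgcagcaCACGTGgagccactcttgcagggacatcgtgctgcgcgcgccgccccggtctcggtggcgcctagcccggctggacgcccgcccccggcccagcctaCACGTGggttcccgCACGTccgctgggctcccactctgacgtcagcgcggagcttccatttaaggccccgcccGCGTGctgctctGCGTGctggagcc

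Enzymes of glycolysis shared this direction. Of 20 tested members 18 were higher in replicate 1 and 1 lower, the lactate transporter Slc16a1 (-0.15, and -0.14 and not past the threshold without replicate 1 of the EtOH control), with a median log2 difference of 0.57. Aldoc, an aldolase, had 71.7, 62.9 and 83.5 CPM in replicate 1 and 19.3 to 30.1 CPM in the others, with no overlap (log2 difference 1.62, SE 0.10, adjusted p = 1.51e-08 in edgeR). Ldhb, a lactate dehydrogenase subunit, had 588, 590 and 368 CPM against 130 to 269 CPM (1.24), and Hk1, hexokinase 1, had 138, 128 and 126 CPM against 55.5 to 65.8 CPM (1.09). Ldha, the other dehydrogenase subunit, was higher in replicate 1 within each group but overlapped across groups, at 1063, 1063 and 1393 CPM against 705 to 1136 CPM (0.41, adjusted p = 0.00269). For glycogen metabolism, a list assembled after the values had been seen, 11 of 13 tested members were higher and none was lower (median 0.82). They included Ppp1r3b and Ppp1r3c, subunits that target a phosphatase to glycogen (1.64 and 2.12), and Pgm2, a phosphoglucomutase (1.46).

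Among p53 targets 15 of 19 tested members were higher and 1 lower, with a median log2 difference of 0.50. Cdkn1a, the inhibitor of cyclin-dependent kinases known as p21, had 82.4, 80.2 and 108 CPM against 32.2 to 40.5 CPM in the other libraries, without overlap (1.30, SE 0.09, adjusted p = 2.83e-08 in edgeR). Btg2 (1.17) and Trp53inp1 (0.83), both antiproliferative, were also higher. The lower member was Trp53, which encodes p53 itself (-0.51). Txnip, a thioredoxin-binding inhibitor of glucose uptake, had 906, 975 and 1051 CPM in replicate 1 and 258 to 524 CPM (median 314) in the others (1.57, SE 0.11, adjusted p = 5.49e-08). It was among 3 higher and 7 lower of the 15 tested metal and oxidative stress genes, where Nqo1 (-0.51) and G6pdx (-0.43) were lower. Of 12 FoxO targets, a list assembled after the values had been seen, 8 were higher and 1 lower (median 0.46), with Pik3ip1 at 1.42, Pdk4, a pyruvate dehydrogenase kinase, at 1.4 and Ccng2, an atypical cyclin, at 1.32.

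Lysosomal and sterol genes showed the same direction more weakly. Of 47 tested lysosomal genes, also listed after the values had been seen, 30 were higher and 4 lower, with a median of 0.36. Neu1, the lysosomal sialidase, had 25.1, 20.8 and 35.8 CPM against 9.34 to 12.2 CPM (1.30), and Gm2a, the activator of ganglioside breakdown, differed by 1.16 and Lamp2, a lysosomal membrane protein, by 0.86. The palindrome CACGTG (the same on both strands, and overlapping the HIF core) was in 13 of 39 windows of these genes (33.3%) and in 10.0% of the windows of tested genes, but also in 4 of 12 windows (33.3%) of the tRNA synthetases, which were lower in replicate 1, and in 22.2% of those of cholesterol synthesis. For cholesterol synthesis 14 of 23 tested genes were higher and 3 lower (median 0.31). Insig1, a sterol-regulated retention protein, had 129, 105 and 144 CPM against 53.2 to 80.3 CPM (1.00), and Stard4 (0.77) and Fdft1 (0.59) followed. Sqle, squalene epoxidase, did not pass the threshold at 88.1, 75.5 and 93.3 CPM against 72.7 to 93.0 CPM (0.05, adjusted p = 0.456 in edgeR). In fatty acid synthesis 9 of 14 genes were higher and 2, Fasn and Acaca, were lower (median 0.24), with Srebf1 at 0.44, Scd1 at 0.56 and Fads1 at 0.31.

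Genes of ribosome production were lower in replicate 1 almost throughout. In the ribosome biogenesis and Myc list 21 of 22 tested members were lower and none was higher, with a median log2 difference of -0.45, where 27.5% of all tested genes were lower. Polr1b, a subunit of RNA polymerase I, had 93.7, 78.6 and 79.1 CPM in replicate 1 and 129 to 169 CPM (median 152) in the others, with no overlap (-0.85, SE 0.06, adjusted p = 1.1e-07 in edgeR). Nop58, a box C/D snoRNP protein (-0.69), Bop1, needed for the large subunit (-0.63), and Mycn (-0.43) were also lower. Among mitochondrial ribosomal proteins 56 of 75 were lower and none was higher (median -0.24). Mrpl20 had 22.9, 19.5 and 15.7 CPM against 37.0 to 46.5 CPM (-1.07), and Mrps18b (-0.65) and Mrpl12 (-0.56) followed. The cytosolic ribosomal proteins themselves moved little and the other way, with 30 of 81 higher, 3 lower and a median of 0.09, and Rps10 at 0.26. Of the 3 lower members, Rpl10l (-0.42) and Rps4y2 (-0.27) are close copies of other ribosomal protein genes, whose reads may be split between copies. Cytosolic tRNA synthetases, listed after the values had been seen, were lower in 12 of 20 cases and higher in none (median -0.20), with Nars at -0.38, Wars at -0.45 and Rars at -0.44.

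Stress and protein folding genes were on balance lower. For the amino acid and integrated stress response list 15 of 27 tested members were lower and 4 higher (median -0.27). Chac1, a glutathione-degrading enzyme induced by Atf4, had 16.1, 14.2 and 14.5 CPM in replicate 1 and 31.9 to 38.9 CPM in the others, without overlap (-1.24, SE 0.07, adjusted p = 9.96e-09 in edgeR). Slc7a3, a cationic amino acid transporter (-1.17), Trib3, a pseudokinase (-0.88), and Atf4, the factor of the response (-0.38), were lower. Asns, asparagine synthetase, did not pass the threshold at 468, 467 and 404 CPM against 356 to 497 CPM (0.05, adjusted p = 0.551). The 4 higher members included Ddit3, which encodes the factor CHOP (1.05), and Gdf15, a secreted stress protein (0.80). Endoplasmic reticulum chaperones were lower in 12 of 19 cases and higher in 2 (median -0.20), led by Dnajb11 (-0.54), Manf (-0.53) and Xbp1 (-0.53). Heat shock genes were lower in 8 of 15 and higher in 1 (median -0.31), with Chordc1 at -0.78, Hspd1 at -0.60 and Hspb1 at -0.49.

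**Figure D4:**
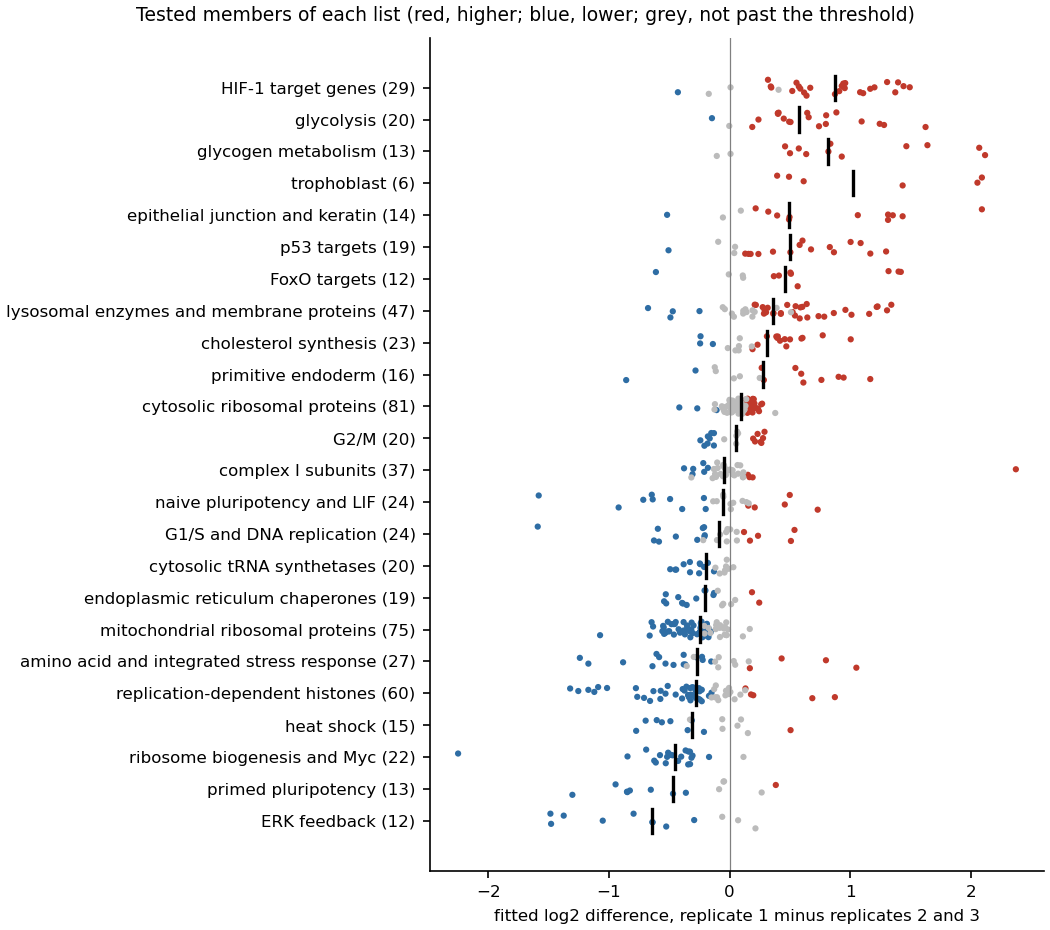
Fitted log2 difference (x axis, replicate 1 minus replicates 2 and 3) of each tested member of 24 gene lists (rows, with the number of tested members), and the median of each list (black bar). The HIF list has the median 0.87 with 25 of 29 members higher, and the ribosome biogenesis list -0.45 with 21 of 22 lower.

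The core pluripotency factors changed little. Sox2 had 501, 541 and 520 CPM in replicate 1 against 491 to 532 CPM (0.01, adjusted p = 0.879 in edgeR), and Nanog had 656, 660 and 515 against 460 to 657 CPM (0.14, adjusted p = 0.0814). Pou5f1 was lower by a small amount, at 606, 635 and 766 against 719 to 840 CPM (-0.20, adjusted p = 0.00583), and did not pass the threshold without replicate 1 of the EtOH control (-0.16, adjusted p = 0.0641). These defining markers of ESCs were present in all 9 libraries. Sox2 overlaps Sox2ot on its strand, and Foxd3, Enox1, Manf, Rnf43, Tubb3, Neurod1, Mest and H19 also overlap another annotated gene, so their counts are uncertain. Of 24 genes of naive pluripotency and the LIF pathway 5 were higher and 9 lower, a share of 58.3% that was close to the 56.1% of all genes. Gbx2, Zfp42 (Rex1; -0.64) and Utf1 (-0.49) had the smallest p-values and were lower, while Fgf4 (0.73) and Prdm14 (0.50) were higher.

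Genes of primed pluripotency and of ERK signalling were lower in replicate 1. In the primed list 8 of 13 tested members were lower and 1 was higher (median -0.47). Dnmt3b, a de novo DNA methyltransferase, had 155, 135 and 142 CPM against 211 to 327 CPM (median 252) in the other libraries (-0.85, SE 0.11, adjusted p = 1.43e-05 in edgeR). Its relatives Dnmt3a (-0.65) and Dnmt3l (-0.76) were also lower. With Dnmt3b and Tet2 (-0.51) they made up the 4 lower of 8 DNA methylation enzymes, of which none was higher. This list was assembled later and shares Dnmt3a and Dnmt3b with the primed list. Its share past the threshold was 50%, against 56.1% of all tested genes. Zic2 (-0.85) and Lef1 (-1.30), transcription factors that rise on the way to the primed state, were lower. Fgf5, the usual marker of that state, was below the expression filter, with 43 counts over the 9 libraries. Among feedback genes of the ERK pathway, listed after the values had been seen, 9 of 12 were lower and none higher (median -0.64). These were the sprouty and spred inhibitors Spry4, Spry2, Spred1, Spred2 and Spred3, the phosphatase Dusp6 (-0.80), and the Ets factors Etv1, Etv4 (-1.05) and Etv5 (-0.53).

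Immediate early genes such as Egr1 and Fos did not follow them. In the wider immediate early and ERK-induced list 7 of 23 tested genes were higher and 9 lower, with a median of 0.07. That list also holds Myc and feedback genes such as Spry4 and Etv4, which are among its lower members. Its counts are therefore not those of immediate early genes alone. Egr1 had 216, 206 and 289 CPM against 117 to 282 CPM (0.21, adjusted p = 0.427 in edgeR) and Fos had 59.4, 86.2 and 139 CPM against 37.1 to 160 CPM (0.21, adjusted p = 0.571). Both overlapped between replicate 1 and the others and differed between replicates 3 and 2 instead, by -0.88 and -1.33. Egr2 (1.38) and Jun (0.95) were higher in replicate 1.

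Among pathways of early differentiation the members moved in both directions. The list of Wnt targets held Rnf43, a receptor ligase and feedback inhibitor, at 2.03, but also Lef1 and Notum (-1.17), with 4 of 11 higher and 5 lower. Tcf7l1 (-0.63), 1 of the lower members, is a transcription factor of the pathway rather than a gene that it raises. In the Nodal and primitive streak list 4 of 11 were higher and 3 lower. Lefty1, a Nodal antagonist, had 134, 139 and 120 CPM against 74.3 to 109 CPM (0.55, adjusted p = 8.1e-05 in edgeR), and Tdgf1, the Nodal co-receptor, differed by 0.40. T (brachyury) was below the expression filter. Retinoic acid targets were higher in 4 of 8 and lower in 1, Rarg (-0.83), with Stra8 at 0.65 and Crabp1 at 0.45.

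Markers of other cell types were examined next. The 6 tested trophoblast markers were all higher, with a median of 1.02, and 5 of them lay above both other libraries of their group in all 3 groups. Ascl2 did not pass the threshold without replicate 1 of the 4OHT control (0.36, adjusted p = 0.176 in edgeR). Genes of low abundance were in general higher in replicate 1, with a median difference of 0.23 in the lowest decile of mean CPM and -0.12 in the highest. The genes below the expression filter summed to 2193 to 2292 CPM in replicate 1 and 1761 to 1958 CPM in the others. Gata2 had 8.5, 6.81 and 14.6 CPM in replicate 1 against 1.67 to 2.7 CPM (2.05, SE 0.19, adjusted p = 5.18e-07 in edgeR). Krt7 had 4.27, 3.32 and 6.73 CPM against 0.844 to 1.6 CPM (2.09), and Krt19 differed by 1.43. The summed level of the 12 trophoblast markers found in the files was 51.1 to 83.7 CPM in replicate 1 and 28.6 to 37.3 CPM in the others. Of the defining markers Cdx2 and Elf5 had 27 and 48 counts over all 9 libraries, and Tpbpa and Prl3d1 had none. The 3 libraries of replicate 1, each the shallowest of its group, held 4 of 27 counts for Cdx2 and 17 of 48 for Elf5. For Gata3 and Hand1, also below the filter, they held 14 of 65 and 40 of 163. Of the 6 tested members 4 are keratins, which belong to epithelia in general. In the list of junction and keratin genes, assembled after the values had been seen, 11 of 14 were higher and 1 lower. Cldn4 was at 1.31 and Cldn7 at 1.35. The largest value of that list, 2.09, is that of Krt7 from the trophoblast list, so the counts of these lists are not separate. In RNA from a whole culture more cells of a type and more RNA per cell cannot be told apart.

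For primitive endoderm 9 of 16 tested markers were higher and 2 lower (median 0.27), while the summed level of the list, 1195 to 1476 CPM in replicate 1 and 1165 to 1558 in the others, overlapped. Gata6 had 2.5, 1.75 and 3.43 CPM against at most 1.55 CPM with a median of 1.29 (0.94, adjusted p = 0.00084 in edgeR), and Hnf4a (1.17), Col4a2 (0.76) and Col4a1 (0.54) were higher. The lowest value among the tested members was -0.86. Of the higher members Gata4, Amn and Dab2 did not pass the threshold without replicate 1 of the 4OHT control (0.45, 0.32 and 0.27). Among defining markers Afp and Ttr had 8 and 4 counts over the 9 libraries. Fibroblast markers were higher in 6 of 8 and lower in 1, Vim (-0.38, and -0.34 and not past the threshold without replicate 1 of the EtOH control), led by Pdgfrb (1.80), Fn1 (0.29) and Col5a1 (0.30), with a summed level of 1237 to 1399 CPM in replicate 1 against 1105 to 1243, which just overlapped. Lum had no counts and Postn and Dcn had 2 and 23. Neural markers were higher in 1 of 5, Neurod1 (0.48), and lower in 2, Tubb3 (-0.70) and Pax6 (-0.79), at 130 to 160 CPM in sum against 160 to 202. In the 2-cell-like list 4 of 8 were lower and none higher, Eif1a (-0.50), Zfp809 (-0.60), Gm5662 (-0.45) and Gm2016 (-0.65), of which Gm5662 (-0.21) and Gm2016 (-0.49) did not pass the threshold without replicate 1 of the 4OHT control and lost the call without several other libraries, with a sum of 166 to 191 CPM against 245 to 264. Most of that sum was Eif1a, and the Zscan4 genes did not pass the threshold. The part of such cells in the differences above was not tested.

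Cell cycle genes moved in both directions. Among G1/S and replication genes 5 of 24 were higher and 10 lower (median -0.09), with Ccne1, cyclin E1 (-0.59), and Tyms, thymidylate synthase (-0.60), lower and Cdkn1b, the inhibitor p27 (0.51), higher. Of 20 G2/M genes 7 were higher and 8 lower with no difference above 0.29 in size, and Mki67, Ccnb2 and Bub1 were at 0.26, 0.26 and 0.23. Replication-dependent histones were lower in 41 of 60 and higher in 5 (median -0.28). Hist1h2bh, a histone H2B gene, had 39.8, 46.1 and 35.4 CPM in replicate 1 against 85.8 to 106 CPM (-1.25, SE 0.09, adjusted p = 5.01e-08 in edgeR), and Hist2h2ac (-1.17) and Hist2h4 (-1.02) followed. Histone genes are near-identical copies without poly(A) tails, so single members are uncertain.

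Imprinted genes (57.1%) and interferon genes (57.1%) passed the threshold about as often as all genes (56.1%), while the shares were 42.1% for germline genes and 44.4% for YAP and SRF targets. Imprinted genes were higher in 8 of 28 and lower in 8, with Mest (-0.74) and Snrpn (-0.82) lower and Igf2r (0.43) higher. H19 had 1.15, 1.75 and 21.8 CPM in replicate 1 against 0.77 to 12 CPM, with more in all libraries of the 4OHT control (0.86, adjusted p = 0.000267 in edgeR), and it did not pass the threshold without replicate 1 of that group (0.58, adjusted p = 0.0981). Germline genes were higher in 7 of 19 and lower in 1, with Sycp3 at 0.70 and Sohlh2 at 0.60. For interferon and antigen presentation 5 of 14 were higher and 3 lower, including Tap1, a peptide transporter (1.29), B2m (0.68) and Ddx58, which encodes the sensor RIG-I (-1.33). YAP and SRF targets were lower in 6 of 18 and higher in 2, with Myl9 at -1.25, Cnn2 at -0.35 and Actb at -0.34. Of 7 nuclear and structured noncoding RNAs 1, Tsix (-0.76), differed.

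Complex I subunits were higher in 4 of 37 and lower in 6, a share of 27.0% against 56.1% of all genes, with Ndufa5 (-0.38) and Ndufb10 (-0.31) the next by p-value after Ndufa4l2, which carries the name of a subunit. Of 10 tested genes of the mitochondrial genome 2 were higher and 1 was lower, mt-Nd6 (0.16), mt-Tp (0.49) and mt-Cytb (-0.57). Without replicate 1 of the EtOH control mt-Nd6 (0.06) and mt-Tp (0.39) did not pass the threshold, and mt-Nd6 lost the call without several other libraries. For mt-Nd1 the values were 1807, 1792 and 1314 CPM against 1357 to 2076 CPM (-0.18, adjusted p = 0.199 in edgeR).

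Several lists also differed between replicates 3 and 2, although the count of 251 genes rested on single libraries. It was 118 without replicate 3 of the EtOH control, 50 and 142 without replicates 2 and 3 of the Zbtb11 KO, and 556, 54 and 94 without replicates 1, 2 and 3 of the 4OHT control. Of 29 HIF targets 8 passed the threshold there, and the median was 0.29 higher in replicate 3, while P4ha1 differed by 0.35 and Ndufa4l2 by 0.87. For the primed list 7 of 13 passed, with a median of 0.38, among them Dnmt3b at 0.42 and Lef1 at 0.68. By these medians the levels had an order, for HIF targets highest in replicate 1 and lowest in replicate 2, and for the primed genes highest in replicate 3 and lowest in replicate 1. The ribosome biogenesis list and the p53 targets differed less, with medians of 0.10 and 0.08 and with 2 of 22 and 0 of 19 members past the threshold.

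The difference of replicate 1 was present in each group. The paper had already described this replicate as distant in all sample groups, which was part of how it was singled out. The values below therefore describe the agreement between groups and do not test it. Within the EtOH control and the 4OHT control, which share no library, the differences correlated across 10734 genes of at least 5 CPM with Pearson's r = 0.88 and Spearman's rho = 0.86. These are correlations across genes, which are not independent replicates. Without the 4OHT control 7158 genes passed the threshold in the lox line, and of these 96.2% had the same direction in the 4OHT control. Its replicate 1 library lay outside the range of its replicates 2 and 3 in that direction for 92.4% of them and in the opposite direction for 1.94%, where 86.1% of all genes lay outside that range in either direction. A difference in size between groups was tested by an interaction term, and 0 genes passed the threshold in edgeR or in DESeq2, with 532 genes at an unadjusted p under 0.05 in edgeR (3.71% of those tested). Each group has 1 library of replicate 1 and this fit leaves only 3 residual degrees of freedom. The count of 0 therefore does not show that the groups agree in size.

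The 5 genes with the smallest unadjusted p-values for this interaction had their largest difference in the 4OHT control. Rhob, a small GTPase, had 20.7 and 24.3 CPM in replicate 1 of the EtOH control and Zbtb11 KO and 89.9 CPM in the 4OHT control, within-group differences of 0.32, 0.55 and 1.44 on the log2(CPM + 0.5) scale. Itga3, an integrin subunit, changed sign, at -0.13, -0.24 and 0.47. Kif1a, a kinesin, had 1.06, 0.88 and 1.72, Dido1 -0.51, -0.56 and -1.16 and Ddx58 -1.16, -1.04 and -1.89. None passed the threshold after adjustment, for which the smallest value was 0.999.

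**Figure D5:**
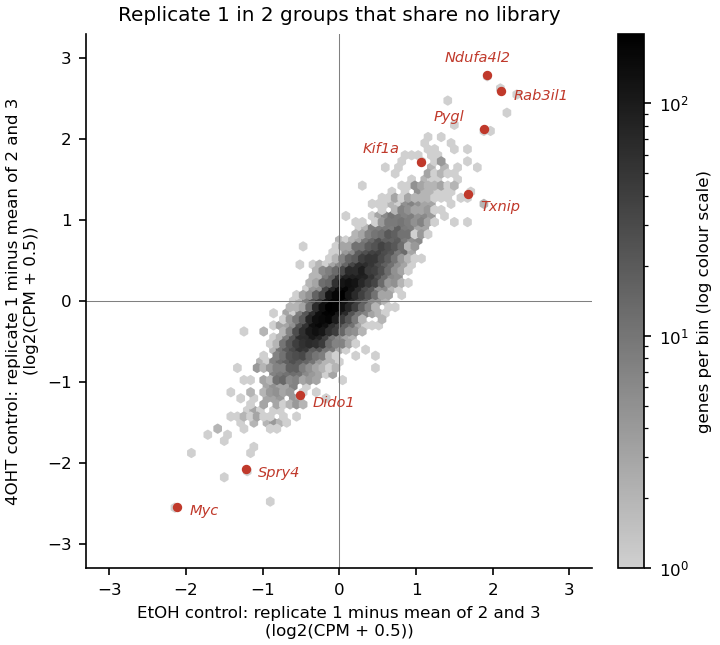
Difference of replicate 1 from the mean of replicates 2 and 3 on the log2(CPM + 0.5) scale in the EtOH control (x axis) and the 4OHT control (y axis) for 10734 genes of at least 5 CPM, shaded by genes per bin, with 8 genes marked. The cloud follows the diagonal, from Myc at -2.12 and -2.54 to Rab3il1 at 2.11 and 2.59.

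With replicate 1 as a term of the model, 258 genes (1.80%) differed between the Zbtb11 KO and the EtOH control, 215 lower (1.5%) and 43 higher (0.3%) in the Zbtb11 KO, against 129 genes without the term. Trdmt1, a tRNA methyltransferase, had 0.524 CPM in the Zbtb11 KO and 6.31 CPM in the EtOH control of replicate 1, and 0.745 and 0.873 CPM against 8.14 and 8.13 in replicates 3 and 2 (log2 difference -3.38 between the groups, adjusted p = 1.53e-09 in edgeR). Of 37 complex I subunits 3 were lower in the Zbtb11 KO, Ndufc2 (-2.49), Ndufs7 (-1.05) and Ndufa12 (-1.01), and none was higher. Among mitochondrial ribosomal proteins 10 of 75 were lower in the Zbtb11 KO. No member of the HIF, glycolysis, glycogen, primed, ribosome biogenesis or ERK feedback lists passed the threshold in that comparison. With 1.80% of all tested genes past it, lists of this size would hold few or none. Of 19 p53 targets 1 was higher in the Zbtb11 KO, and of 20 cytosolic tRNA synthetases 1, Wars (-0.37), was lower.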

How the data were processed

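RNA-seq had been made from total RNA depleted of rRNA, in directional paired-end libraries. The authors aligned the reads with STAR and deposited raw counts per gene from HTSeq, with mm9 named in the processing notes. The other deposited file used holds positions of Zbtb11 consensus peaks, 7500 in all, a consensus of Zbtb11 and FLAG-Zbtb11 peaks that the authors had called with MACS2 within the IDR pipeline. Counts on genes were 14301457 to 23876604 per library, and the 9 libraries were all distinct. Reads outside annotated genes (25.3 to 31.6%) and ambiguous reads stayed out of library sizes and tests.

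Of 37310 genes, the 14346 with over 1 CPM in at least 3 libraries were normalised by TMM and fitted in edgeR 4.0.16 (R 4.3.3, limma 3.58.1) with group and replicate 1 as terms, and quasi-likelihood tests were adjusted by Benjamini-Hochberg at 0.05. CPM values are TMM-normalised, and log2 differences are fitted values unless the log2(CPM + 0.5) scale is named. DESeq2 1.42.0 was an alternative, as were other scalings, filters and thresholds, a replicate block and the leaving out of libraries and groups. Whether same-numbered libraries deviate together was checked by correlating their deviations from the group means, and each pair with the same number had r of at least 0.43, so the numbers were taken to pair the samples. Libraries numbered 2 and 3 correlated across groups at up to 0.53, so the check sets replicate 1 apart but not replicate 2 from replicate 3. On simulated counts of 14346 genes for the comparison of replicate 1, 187 of 200 changed genes were recovered (87% at a log2 change of 0.5 and 100% at 1), with 5.08% false among 197 calls, and 1 gene was called where none had been changed. In the simulation the libraries were independent and only well-covered genes were changed. In the data 8044 genes were called, and the libraries of replicate 1 deviate together (r of 0.79 to 0.82). The simulated rates therefore do not describe the calls in the data.

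The members and the gene lists were chosen with earlier results of these data known. Genes named were the 12 highest and 12 lowest by log2 difference with a mean of at least 5 CPM and the same direction in all 3 groups, the 3 members of each list with the smallest p-values among those past the threshold, the defining members of a list, the 5 genes with the smallest interaction p-values, and Trdmt1 and complex I for the Zbtb11 KO. Other list members were named after their values were seen. Promoters were matched to RefSeq windows by symbol. Columns of peak coverage and the single peak lists were not used here. A few of the genes that this rule names are not reported here.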

Additional observations from a re-analysis of the deposited data

How the results depend on the processing

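The 8044 genes that differed in replicate 1 became 3665 when a fold change above 1.2 was required (glmTreat) and stayed within 1.5 times that count under the other alternatives, from 6318 to 8226 with each library left out. With the replicate block, the pairing by replicate number, 8507 genes passed in place of 8044, and 323 in place of 258 between the Zbtb11 KO and the EtOH control. The comparison of the Zbtb11 KO gave 129 genes with no term for replicate 1, 210 without the libraries of replicate 1, and 220 to 308 with each library left out. Replicate 3 against replicate 2 gave 509 genes with no filter, 82 at an adjusted p under 0.01, 7 with glmTreat, 412 with replicate 1 left out of the fit and 50 to 556 with each library left out, in place of 251. The interaction gave 0 to 2 genes with each library left out, the 2 without replicate 3 of the 4OHT control, and glmTreat was not run for it. The split of 4101 higher and 3943 lower became 4771 and 3240 with library sizes in place of TMM, and 3801 and 4163 with the offsets for GC content and length. Of the 142 genes past the threshold that the rule above names, 20 lost the call under at least 1 of 26 alternatives: Actb, Bub1, Ccnb2, Cnn2, Fads1, Fn1, Ldha, Mki67, Ndufa5, Ndufb10, Rps10 and Rps4y2 with glmTreat alone, Col5a1 also with the GC and length offsets, mt-Cytb with the robust fit, and Gm5662, H19, Pou5f1, Trdmt1, mt-Nd6 and mt-Tp also or only when libraries were left out. List members named after their values were seen are not in this count. Some of them also lost the call when libraries were left out, such as Slc16a1, Vim, Gm2016, Ascl2, Gata4, Amn and Dab2. Fos reversed to -0.31 without replicate 3 and was 1.02 without replicate 2, and Itga3 to -0.18 both without replicate 1 of the 4OHT control and without that whole group, with at most 0.17 when another library was left out; the cause was not tested. The median kept its sign in 31 of 40 lists under all alternatives, and changed it in the immediate early, naive, Nodal, retinoic acid, neural, imprinted, nuclear noncoding RNA, mitochondrial genome and complex I lists. Thinning all libraries to equal depth (7675 genes) and offsets for GC content and length (7964), both chosen after seeing the data, kept the direction of 100% and 99.7% of the calls. The 3 libraries of replicate 1 are the shallowest of their groups, which limits what can be said of genes below 1 CPM.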

Other observations

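Promoters bound by Zbtb11 were divided unevenly between the genes higher and lower in replicate 1. A Zbtb11 consensus peak lay between 2000 bases before and 500 bases after the start of 29.1% of the 13351 tested protein-coding genes, of 19.5% of the 3931 higher in replicate 1, and of 39.2% of the 3794 lower in it. The lower genes were more abundant, with a median of 48.5 CPM against 14.5 CPM. Within each of 10 deciles of abundance the share was larger among lower than among higher genes, for example 38.6% against 21.6% in decile 5 and 36.0% against 28.3% in decile 10. Genes not past the threshold had a peak in 28.9% of cases, with 35.9% in decile 5 and 34.4% in decile 10. The higher genes were below them in every decile. The lower genes were above them except in decile 1, at 8.33% against 11.4%, and by little in some deciles, such as 16.8% against 16.4% in decile 2. These are shares of genes, which are not replicates, and no test was made.

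Noncoding classes can be set beside the 28.6% of all tested genes that were higher and the 27.5% that were lower in replicate 1. Of 11 tested snRNA genes 8 were higher and none lower (median log2 difference 0.59), and of 111 snoRNA genes 23 were higher and 7 lower (median 0.13). Pseudogenes were higher in 29 and lower in 52 of 251 cases. Copies of snRNA genes and pseudogenes are near-identical to other genes, so their counts are uncertain.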
